A study of Mus musculus with 12 samples.

Results

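The DNA repair genes described here are 60 of the 24562 genes in the deposited table. Their symbols match set patterns for the Fanconi anaemia, Brca, Rad50 to Rad54, Xrcc, Ercc, Msh, Pms, Parp and DNA ligase families. Mre11a, Nbn and Palb2 were added by name. The patterns do not take every member of these families, and Fancd2, for example, is outside them. The genes were chosen by symbol, by a rule that uses no measured value but was set with earlier results of these data known. RNA-Seq was performed on 12 pools of 18 to 45 oocytes from CD-1 mice, a strain of outbred laboratory mice, with 3 pools in each of 4 cohorts. These were mice of postnatal day (PND) 13, mice of PND 16 divided by body weight into small and large, and mice of PND 40, none of which had been given gonadotropins. The study regards oocytes of PND 13 and PND 16 small mice as lacking meiotic competence, the ability to resume meiosis and reach metaphase II. It regards those of PND 16 large and PND 40 mice as competent. For the PND 16 mice this division rests on few animals, and the study did not show those data. The sequenced oocytes were not themselves matured, and age or body size differs along with competence between the cohorts.

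A cell repairs its DNA by several routes, which have some parts in common. Each gene was put in 1 group only. Double-strand breaks are rejoined either by homologous recombination, in which Brca2 and its partner proteins let the broken end copy an intact DNA, or by end joining, in which the Ku proteins and ligase IV join the ends directly. The Fanconi anaemia complex unhooks crosslinks between strands, whereas nucleotide excision, base excision and mismatch repair replace damaged or mispaired bases on 1 strand. Oocytes wait in prophase I of meiosis for much of their life, are known to repair breaks in that state, and store maternal RNA on which the early embryo depends.

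Expression is given as CPM, counts scaled to a fixed total for every pool with TMM factors (the trimmed mean of M-values, which corrects for differences in RNA composition), and levels of different genes are compared only as CPM per kb of annotated exons. Pools held 17671193 to 27418358 counts in total, and the repair genes took 0.519% to 0.550% of it. All 10 oocyte markers were present, with sums of 13058 to 16543 CPM. Markers of granulosa and cumulus cells, which surround the oocyte, summed to 429, 128 and 485 CPM at PND 13, 183, 510 and 244 in PND 16 small, 174, 170.0 and 185 in PND 16 large, and 151, 164 and 149 at PND 40, and were thus highest in PND 13 replicates 1 and 3 and PND 16 small replicate 2. Of these sums Nr5a2 alone gave 87.8 to 146 CPM in every pool. Amh, Foxl2 and Inha were lowest in PND 13 replicate 2 and PND 16 small replicate 1, whereas Kitl was lowest at PND 40. In competent vs. non-competent oocytes 2 of the 10 granulosa markers and 1 of the 10 oocyte markers were called lower, and the part of these differences in the repair gene results was not tested. In a bulk pool, a smaller share of a cell type and less of a transcript per cell cannot be told apart.

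A gene was called higher or lower at an adjusted p of at most 0.05 over the 13943 genes tested and at least a 1.5-fold change (quasi-likelihood test of edgeR, Benjamini-Hochberg adjusted). Of the 60 repair genes, 59 passed the filter on low counts, and Parp3, a PARP enzyme that acts at DNA breaks, did not, with at most 4 counts in a pool. Most repair genes kept a similar level in the 4 cohorts. In the 7 comparisons 44 of the 59 were never called. The matching share of all genes is not given, and shares for each comparison follow below. The ratio of the highest to the lowest cohort mean was under 1.5 for 39 of the 59 (66.1%, against 47.3% of all genes tested, not matched for level), with a median of 1.32 against 1.54.

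The 15 genes that were called moved in both directions, and the median log2 fold change of the repair genes lay between -0.04 and 0.03 in every comparison with TMM scaling. In competent vs. non-competent oocytes, 8 of 59 repair genes were called, 4 higher and 4 lower (13.6%). Of all genes tested 15% were called, 3.78% higher and 11.2% lower. In PND 40 vs. PND 13, 10 were called, 5 in each direction (16.9%, against 18.9% of all genes, 6.31% higher and 12.6% lower). In PND 16 large vs. PND 13, 8 were called, of which 5 were higher (13.6% against 13.3%, 3.52% higher and 9.8% lower). In PND 40 vs. PND 16 small, 7 were called, of which 4 were lower (11.9% against 17.2%, 6.89% higher and 10.3% lower).

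Between the PND 16 cohorts, which have the same age, 3 were higher and 2 lower in large mice (8.47% against 6.19%, 1.43% higher and 4.76% lower). This count depended on single pools and was 0 without PND 16 large replicate 1, 1 without replicate 2, 2 without replicate 3 and 3 without PND 16 small replicate 1, and 1 when only these cohorts were fitted. The shares of all genes called in these fits are not given, so the losses cannot be read as particular to the repair genes. No repair gene was called in PND 16 small vs. PND 13, where 0.373% of all genes were, or in PND 40 vs. PND 16 large, where 3.66% were, 2.34% higher and 1.32% lower. At an unadjusted p below 0.05 these comparisons held 10 and 14 repair genes by edgeR (16.9% and 23.7%, against 19.2% and 22.4% of all genes tested), and DESeq2 called 1, Ercc1, in the former and 0 in the latter. The shares of all genes called by DESeq2 are not given. The comparisons share pools, so their counts are not independent.

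**Figure D1:**
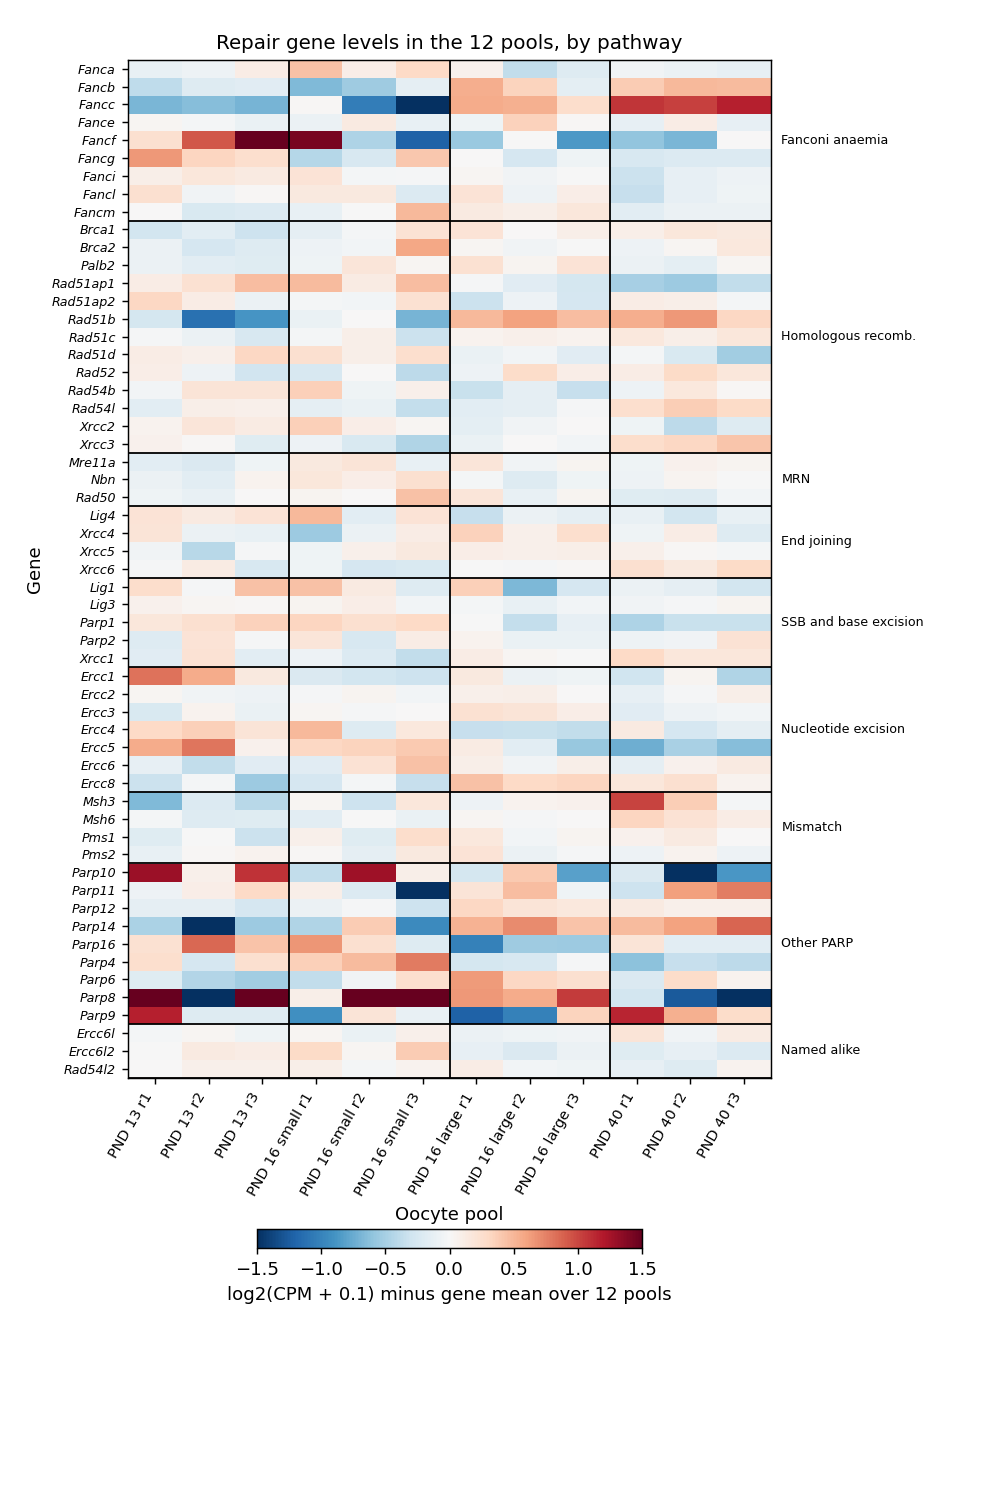
Levels of 57 of the 59 tested repair genes (rows, by pathway) in the 12 oocyte pools (columns), as log2(CPM + 0.1) minus the mean of the gene over the pools, with red above and blue below the mean and colours capped at 1.5. Most rows are pale throughout, Fancc and Rad51b lie near or below their mean in every PND 13 and PND 16 small pool and above it in every PND 16 large and PND 40 pool, and the strong colours of Fancf, Parp8, Parp9 and Parp10 vary among pools of the same cohort.

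Levels per kb differed far more between repair genes than between cohorts. Parp12, a mono-ADP-ribosyltransferase, stood highest with 318 CPM per kb, followed by Msh6, which recognises mismatched bases, with 66.6, and Brca2, which acts in homologous recombination, with 44.8. Next came the end-joining genes Lig4 (39.8) and Xrcc5 (39.3), Rad50 (38.3) and Brca1 (31.5). By pathway, the median level was 25.4 CPM per kb for end joining and 12.3 for single-strand break and base excision repair. It was 9.17 for mismatch repair, 9.16 for the MRN complex and 9.09 for homologous recombination. The genes listed apart as named alike had 8.16, the Fanconi anaemia complex 5.40 and nucleotide excision repair 4.69. The PARP family members not placed in a repair pathway here had 0.844. The exon lengths count every annotated exon, retained introns included, which lowers the values of genes with such transcripts.

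**Figure D2:**
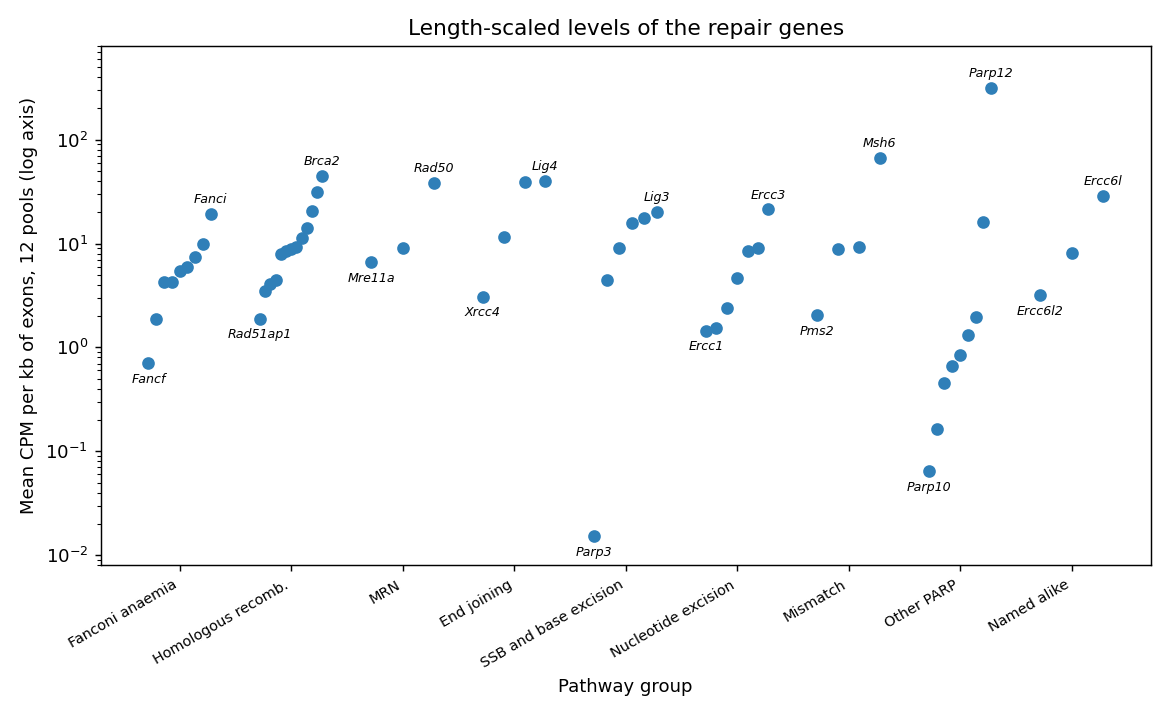
Mean level of 58 of the 60 repair genes over the 12 pools in CPM per kb of exons (vertical log axis), 1 point per gene, by pathway group (horizontal axis), with the highest and lowest gene of each group named. Parp12 stands above all others at 318 CPM per kb, and Parp3 lies lowest at 0.0153.

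Sequence before the transcription start was read for the repair genes from RefSeq (GRCm38.p6), 250 bases per window, which gave 54 windows for 47 of the 60. The median ratio of observed to expected CpG was 0.802 in them and 0.374 in all 32841 windows. Searched on both strands, CCGGAA, the core of ETS factor sites, was in 33.3% of repair gene windows and 12% of all windows, and the CCAAT box in 48.1% and 33.9%. TTTCCCGC, an E2F element, was in 5.56% (3 windows) and 0.895%, the E-box CANNTG in 59.3% and 66.2%, and TAATTG, bound by the oocyte factor Nobox, in 3.7% and 7.17%. Matches of different motifs overlapped in 1 repair gene window. The repair gene windows and all windows were not matched for CpG content, and CCGGAA and TTTCCCGC each contain a CpG. A match says only that the letters are present. The windows of 3 of the 4 genes called in at least 4 comparisons are shown, Fancc and Rad51b, which rose, and Ercc5, which fell, with the CCAAT box of either strand (CCAAT or ATTGG) in capitals. The Fancb window holds annotated exon bases and is not shown. For Fancc and Ercc5 the window lies before the start RefSeq gives in this table, 65.5 and 0.796 kb inside the outermost annotated start of the gene.
Fancc (chr13:63431746-63431995, minus strand): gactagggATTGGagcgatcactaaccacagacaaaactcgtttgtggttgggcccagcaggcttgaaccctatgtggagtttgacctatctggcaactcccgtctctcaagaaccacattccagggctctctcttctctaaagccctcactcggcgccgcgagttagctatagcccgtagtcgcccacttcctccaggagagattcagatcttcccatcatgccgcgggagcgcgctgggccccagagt
Rad51b (chr12:79297032-79297281, plus strand): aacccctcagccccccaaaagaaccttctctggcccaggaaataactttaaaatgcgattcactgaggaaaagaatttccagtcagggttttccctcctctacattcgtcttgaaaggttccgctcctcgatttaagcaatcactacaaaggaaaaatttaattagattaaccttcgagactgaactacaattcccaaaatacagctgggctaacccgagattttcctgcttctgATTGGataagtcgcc
Ercc5 (chr1:44147494-44147743, plus strand): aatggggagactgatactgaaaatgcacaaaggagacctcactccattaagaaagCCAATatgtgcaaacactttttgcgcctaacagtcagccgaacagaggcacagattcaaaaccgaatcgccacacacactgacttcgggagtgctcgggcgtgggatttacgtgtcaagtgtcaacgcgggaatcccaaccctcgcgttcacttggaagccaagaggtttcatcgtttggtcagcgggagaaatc
Each of the 3 windows shown holds 1 CCAAT box. Rad51b has a further window, which overlaps the one shown, holds annotated exon bases and has 1 TAATTG match, and the Fancb window holds 1 CCAAT box and 1 CCGGAA match.

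Of the 59 genes, Fancc had the largest positive log2 fold change in competent oocytes. Fancc (chr13:63301334-63497292, minus strand, GRCm38.p6), a subunit of the Fanconi anaemia core complex that ubiquitinates Fancd2 at crosslinks, measured 25.7, 26.7 and 25.6 CPM at PND 13, 41.9, 20.1 and 13.9 in PND 16 small, 61.0, 59.95 and 49.7 in PND 16 large, and 87.6, 84.9 and 93.1 at PND 40. Every competent pool lay above every non-competent pool, and the PND 40 pools lay above the PND 16 large pools. Fancc was 2.83-fold higher in competent oocytes (log2 fold change 1.501 ± 0.23 (SE), edgeR adjusted p = 0.000455). It was also called higher in PND 40 vs. PND 13 (log2 fold change 1.77), PND 40 vs. PND 16 small (1.80), PND 16 large vs. PND 13 (1.13) and PND 16 large vs. PND 16 small (1.17). The call of PND 16 large vs. PND 13 was lost on leaving out any single PND 13 pool or PND 16 large replicate 1 or 2, and that of PND 16 large vs. PND 16 small on leaving out any single PND 16 large pool or PND 16 small replicate 2. Its difference in PND 40 vs. PND 16 large (log2 fold change 0.64 ± 0.30 (SE), edgeR adjusted p = 0.235) was not called with all cohorts in the fit and was called when only these cohorts were fitted (adjusted p = 0.000572 in edgeR). An antisense gene, Gm16133, overlaps 16.4% of the Fancc exons, and the strand setting of the counting is not given in the sources used here.

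Fancb (chrX:164980480-164997272, plus strand), another core complex subunit, measured 11.8, 13.6 and 13.7 CPM at PND 13, 9.76, 10.7 and 14.1 in PND 16 small, 22.7, 19.5 and 14.0 in PND 16 large, and 20.2, 21.7 and 21.6 at PND 40. All competent pools but PND 16 large replicate 3 exceeded every non-competent pool. It was 1.62-fold higher in competent oocytes (log2 fold change 0.70 ± 0.13 (SE), edgeR adjusted p = 0.00152). Fancb was also called higher in PND 40 vs. PND 16 small (log2 fold change 0.88), PND 40 vs. PND 13 (0.70) and PND 16 large vs. PND 16 small (0.70), the last lost without replicate 1 or 2 of either cohort. Fancf, an adaptor of the same complex, varied widely, with 1.15, 1.91 and 3.52 CPM at PND 13, 2.72, 0.663 and 0.356 in PND 16 small, 0.613, 0.947 and 0.478 in PND 16 large, and 0.600, 0.557 and 0.955 at PND 40. Its groups overlapped, and it lay just outside the threshold (log2 fold change -1.31 ± 0.48 (SE), edgeR adjusted p = 0.0511). Without PND 16 small replicate 2 or 3 it was called lower (adjusted p = 0.0285 and 0.0128 in edgeR), as it was by DESeq2 (adjusted p = 0.0294). Of its exons, 15% overlap Gas2 on the other strand.

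Among the other Fanconi anaemia genes, Fancg, a core subunit, was called lower once, in PND 40 vs. PND 13 (log2 fold change -0.64 ± 0.23 (SE), edgeR adjusted p = 0.0422), a call lost on leaving out any of 5 of the 6 pools compared, PND 13 replicate 2 being the exception. Fanci, the partner of Fancd2 on DNA and the most abundant of the group, averaged 121 ± 3.30 CPM at PND 13 and 98.5 ± 8.96 at PND 40 (SD, n = 3), a difference under the fold criterion (log2 fold change -0.30 ± 0.08 (SE), edgeR adjusted p = 0.0148). In competent oocytes 2 of the 9 genes were higher and 0 lower, and the remaining 7 were not called. Of all genes tested 3.78% were called higher and 11.2% lower. The pathway groups, of 3 to 14 genes, are too small to set their counts apart from such shares.

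In homologous recombination, 12 of 14 genes were not called in competent vs. non-competent oocytes, where 15% of all genes tested were called. The exceptions among the 14 moved in opposite directions. Rad51b (chr12:79297282-79848260, plus strand), which acts in the early steps of homologous recombination, measured 12.8, 7.03 and 8.31 CPM at PND 13, 14.3, 15.4 and 9.43 in PND 16 small, 21.6, 23.5 and 21.2 in PND 16 large, and 22.4, 24.2 and 19.1 at PND 40. The competent pools all exceeded the non-competent ones. It was 1.96-fold higher in competent oocytes (log2 fold change 0.97 ± 0.18 (SE), edgeR adjusted p = 0.000984) and was called higher in every comparison of a competent with a non-competent cohort, with log2 fold changes from 0.74 to 1.24. The calls against PND 13 held on leaving out each pool in turn. Those against PND 16 small did not, being lost for PND 16 large without PND 16 large replicate 1, 2 or 3 or PND 16 small replicate 3, and for PND 40 without PND 40 replicate 1 or 2 or PND 16 small replicate 3.

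Rad51ap1 (chr6:126923415-126939621, minus strand), which stimulates strand invasion, fell. It measured 9.60, 10.3 and 12.2 CPM at PND 13, 12.3, 9.67 and 12.3 in PND 16 small, 8.71, 7.89 and 7.36 in PND 16 large, and 6.22, 6.05 and 6.83 at PND 40. All competent pools were below all non-competent ones, with PND 40 lowest. It was 1.54-fold lower in competent oocytes (log2 fold change -0.63 ± 0.14 (SE), edgeR adjusted p = 0.00337), a call lost without PND 40 replicate 1 or 2. It was also called lower at PND 40 against PND 16 small (log2 fold change -0.84) and PND 13 (-0.75).

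Among other genes of the group, Rad51d (log2 fold change -0.36 ± 0.09 (SE), edgeR adjusted p = 0.00581) and Xrcc2 (log2 fold change -0.28 ± 0.08 (SE), edgeR adjusted p = 0.0205) had competent pools below all non-competent pools at less than 1.5-fold. Rad51c and Xrcc3 had log2 fold changes of 0.20 and 0.29 with overlapping pools. In PND 40 vs. PND 16 small the Xrcc3 pools did not overlap, just under the fold criterion (log2 fold change 0.58 ± 0.12 (SE), edgeR adjusted p = 0.00275). There Xrcc3 was called with total counts and without PND 40 replicate 1 or 2 or PND 16 small replicate 1. It was also called without the 3 pools with high granulosa markers. Brca2, the most abundant gene of the group, had 537 ± 31.5 CPM at PND 13, 688 ± 186 in PND 16 small, 601 ± 18.2 in PND 16 large and 620.2 ± 50.8 at PND 40 (SD, n = 3). The wide spread in PND 16 small came from replicate 3, with 903 CPM.

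**Figure D3:**
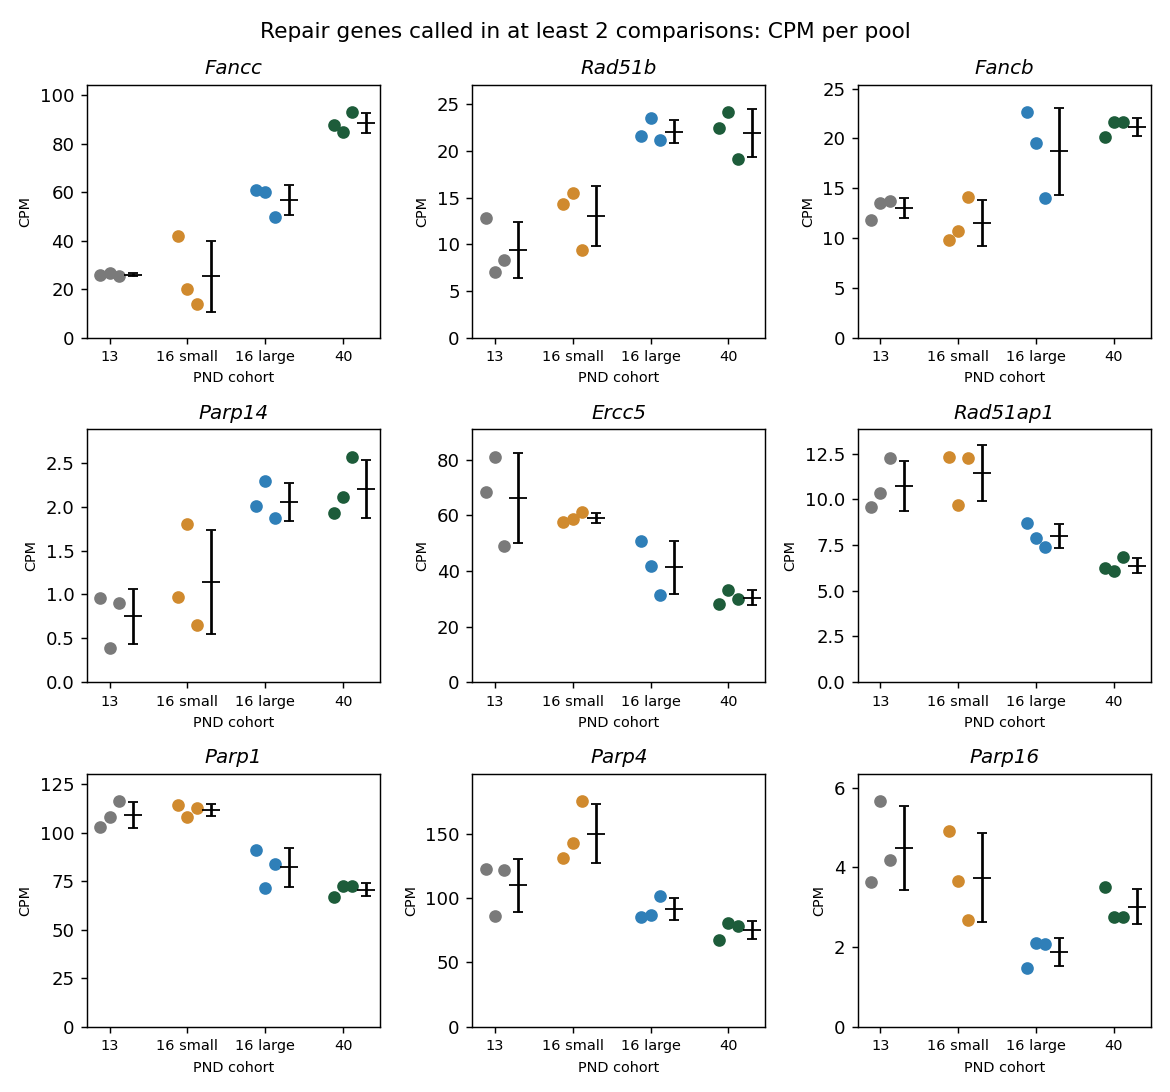
CPM in each pool (points, 3 per cohort, in replicate order) of the 9 repair genes called in at least 2 comparisons, with the cohort mean and SD (bar beside the points), on linear axes that start at 0. Fancc reaches 84.9 to 93.1 CPM at PND 40 against 13.9 to 41.9 in the non-competent pools, and Parp1 lies at 66.6 to 91.2 CPM in the competent pools against 103 to 116.

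Of all genes tested, 0.373% to 18.9% were called, depending on the comparison. The MRN complex, which senses and trims broken ends, had no called gene among its 3 in any comparison. Rad50, its ATPase, measured 196, 189 and 205 CPM at PND 13, 210.4, 204 and 278 in PND 16 small, 231, 189 and 209.5 in PND 16 large, and 181, 179 and 198 at PND 40, with PND 16 small replicate 3 above the rest. Nbn, which recruits the ATM kinase, measured 21.7, 20.7 and 24.0 CPM at PND 13, 25.9, 24.8 and 27.4 in PND 16 small, 22.7, 20.3 and 22.1 in PND 16 large, and 22.0, 23.7 and 23.1 at PND 40. Both had small differences in competent oocytes, -0.11 ± 0.09 and -0.11 ± 0.09 (SE) on the log2 scale (edgeR adjusted p = 0.395 and 0.373).

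None of the 4 end-joining genes was called either, against the same 0.373% to 18.9% of all genes. Lig4, the ligase that seals the ends, measured 236, 224 and 236 CPM at PND 13, 286, 183 and 236 in PND 16 small, 161, 192 and 186 in PND 16 large, and 189, 169 and 189 at PND 40. It was lower in competent oocytes at less than 1.5-fold (log2 fold change -0.37 ± 0.09 (SE), edgeR adjusted p = 0.00584), and PND 16 small replicate 2 lay among the competent pools. Xrcc6, which encodes Ku70, measured 50.6, 55.7 and 43.5 CPM at PND 13, 49.0, 43.2 and 43.9 in PND 16 small, 51.0, 50.7 and 51.9 in PND 16 large, and 60.6, 56.8 and 62.7 at PND 40. Its PND 40 pools were the highest, and its difference with competence did not pass the test (log2 fold change 0.22 ± 0.09 (SE), edgeR adjusted p = 0.0650).

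In single-strand break and base excision repair, Parp1 (chr1:180568891-180600999, plus strand), the main sensor of strand breaks and maker of poly(ADP-ribose), measured 103, 108 and 116 CPM at PND 13, 114, 108 and 113 in PND 16 small, 91.2, 71.4 and 83.9 in PND 16 large, and 66.6, 72.4 and 72.5 at PND 40. No competent pool reached the lowest non-competent pool. Parp1 was called lower in PND 40 vs. PND 13 (log2 fold change -0.63 ± 0.09 (SE), edgeR adjusted p = 0.000263) and vs. PND 16 small (log2 fold change -0.66 ± 0.09 (SE), edgeR adjusted p = 0.000235). In competent oocytes it was 1.45-fold lower, just under the fold criterion (log2 fold change -0.53 ± 0.08 (SE), edgeR adjusted p = 0.000239). Without PND 16 large replicate 1 it was called there (log2 fold change -0.60), and without PND 13 replicate 3 its call in PND 40 vs. PND 13 was lost. Its close relative Parp2 did not pass the test (log2 fold change -0.03 ± 0.11 (SE), edgeR adjusted p = 0.871).

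Lig1, the replicative ligase, measured 45.3, 37.5 and 51.3 CPM at PND 13, 51.4, 41.5 and 33.0 in PND 16 small, 48.5, 23.7 and 31.8 in PND 16 large, and 35.5, 34.4 and 31.2 at PND 40 and overlapped between groups (log2 fold change -0.34 ± 0.15 (SE), edgeR adjusted p = 0.103). Lig3, which works with the scaffold Xrcc1, was among the steadiest genes, with cohort means between 142 and 152 CPM. Of its exons, 25.1% overlap Rffl on the other strand.

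Nucleotide excision repair had 1 called gene of 7 in competent oocytes, where 15% of all genes tested were called. Ercc5 (chr1:44146948-44181260, plus strand), the XPG endonuclease that cuts on the 3′ side of a lesion, measured 68.5, 81.2 and 48.9 CPM at PND 13, 57.7, 58.6 and 61.1 in PND 16 small, 50.7, 41.7 and 31.4 in PND 16 large, and 28, 33.2 and 29.97 at PND 40. PND 40 was lowest, and the groups overlapped only through PND 13 replicate 3 and PND 16 large replicate 1. It was 1.75-fold lower in competent oocytes (log2 fold change -0.81 ± 0.15 (SE), edgeR adjusted p = 0.00130) and 2.18-fold lower in PND 40 vs. PND 13 (log2 fold change -1.12 ± 0.18 (SE), edgeR adjusted p = 0.000639).

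Ercc4 and Ercc1, the subunits of the nuclease that cuts on the 5′ side, were each called lower once. For Ercc4 this was PND 16 large vs. PND 13 (log2 fold change -0.64 ± 0.17 (SE), edgeR adjusted p = 0.0136) and for Ercc1 PND 40 vs. PND 13 (log2 fold change -0.77 ± 0.24 (SE), edgeR adjusted p = 0.0249), the latter lost without PND 13 replicate 1 or PND 40 replicate 1 or 3. Ercc8, which helps transcription-coupled repair, measured 9.12, 11.2 and 7.82 CPM at PND 13, 9.62, 11.2 and 8.95 in PND 16 small, 15.5, 14.1 and 14.4 in PND 16 large, and 12.9, 13.5 and 11.8 at PND 40. All its competent pools exceeded the non-competent ones, at 1.42-fold (log2 fold change 0.50 ± 0.12 (SE), edgeR adjusted p = 0.00645), and it was called higher in PND 16 large vs. PND 13 (log2 fold change 0.65 ± 0.16 (SE), edgeR adjusted p = 0.0115), a call lost without PND 13 replicate 3 or PND 16 large replicate 1. Ercc2 and Ercc3, the helicases of TFIIH, were not called in any comparison.

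Of all genes tested 15% were called in competent vs. non-competent oocytes, and none of the 5 mismatch repair genes was. Msh6, the most abundant of them, differed by less than 1.5-fold (log2 fold change 0.23 ± 0.07 (SE), edgeR adjusted p = 0.0197).

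Msh3, which recognises insertion and deletion loops, measured 62.7, 85.6 and 73.9 CPM at PND 13, 101, 79.7 and 112 in PND 16 small, 93.7, 103 and 104 in PND 16 large, and 199, 128 and 97.3 at PND 40. PND 40 replicate 1 lay far above the other pools. Msh3 was called higher in PND 40 vs. PND 13 (log2 fold change 0.93 ± 0.23 (SE), edgeR adjusted p = 0.00966), and this call was lost when only these cohorts were fitted.

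The other PARP family genes, which mostly encode mono-ADP-ribosyltransferases, held both rises and falls. Parp12, the most abundant, had competent pools of 1331 to 1560 CPM above non-competent pools of 1018 to 1241, at 1.24-fold (log2 fold change 0.31 ± 0.06 (SE), edgeR adjusted p = 0.00210). Parp14 (chr16:35831892-35871518, minus strand), expressed at a low level of 10 to 70 counts per pool, measured 0.955, 0.391 and 0.900 CPM at PND 13, 0.971, 1.80 and 0.652 in PND 16 small, 2.00, 2.29 and 1.87 in PND 16 large, and 1.93, 2.11 and 2.57 at PND 40. The competent pools lay above the non-competent ones, with PND 16 small replicate 2 closest to them. It was 2.25-fold higher (log2 fold change 1.17 ± 0.33 (SE), edgeR adjusted p = 0.0142). Against PND 13 it was called higher at PND 40 (log2 fold change 1.56, lost without PND 13 replicate 2 or PND 40 replicate 3) and in PND 16 large (1.46, lost without any single one of the pools but PND 13 replicate 1).

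Parp4 (chr14:56575619-56659798, plus strand), the PARP of vault particles, measured 122, 85.6 and 121 CPM at PND 13, 131, 143 and 175 in PND 16 small, 85.5, 86.9 and 101 in PND 16 large, and 67.0, 80.2 and 78.02 at PND 40. PND 16 small was highest, and PND 13 replicate 2 lay within the PND 16 large range. Parp4 was 1.56-fold lower in competent oocytes (log2 fold change -0.64 ± 0.14 (SE), edgeR adjusted p = 0.00350), a call lost without PND 40 replicate 1 or PND 16 small replicate 3. Against PND 16 small it was called lower at PND 40 (log2 fold change -0.99) and in PND 16 large (-0.71, lost without PND 16 large replicate 1).

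Parp16, an enzyme of the endoplasmic reticulum, measured 3.63, 5.66 and 4.17 CPM at PND 13, 4.91, 3.65 and 2.67 in PND 16 small, 1.47, 2.09 and 2.07 in PND 16 large, and 3.52, 2.75 and 2.76 at PND 40. Lowest in PND 16 large, it overlapped between groups and was 1.69-fold lower in competent oocytes (log2 fold change -0.75 ± 0.25 (SE), edgeR adjusted p = 0.0304), a call lost on leaving out any of 6 of the 12 pools (PND 13 replicate 2 or 3, PND 16 large replicate 1, 2 or 3, or PND 16 small replicate 1). In PND 16 large it was called lower against PND 13 (log2 fold change -1.26, lost without PND 16 large replicate 1) and against PND 16 small (-0.99, lost on leaving out any single pool but PND 16 small replicate 3).

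Parp8 varied widely among pools of the same cohort, with 25.2, 0.117 and 24.6 CPM at PND 13, 6.17, 20.5 and 26.3 in PND 16 small, 9.16, 8.56 and 12.02 in PND 16 large, and 4.76, 2.35 and 0.220 at PND 40. PND 13 replicate 2 and PND 40 replicate 3 held 3 and 6 counts, whereas the other PND 13 pools held over 500. It was not called in competent oocytes (log2 fold change -1.47 ± 0.92 (SE), edgeR adjusted p = 0.250), and without PND 13 replicate 2 it was called lower in PND 40 vs. PND 13 (log2 fold change -3.39, edgeR adjusted p = 0.0204). The granulosa marker sum was also low in these pools, 128 and 149 CPM, and high in the other PND 13 pools, 429 and 485 CPM, while PND 16 small replicate 3, with the highest Parp8 level, had 244 CPM, and its part in the Parp8 values was not tested. Parp10 was near the floor, with at most 14 counts in a pool. It measured 0.668, 0.234 and 0.573 CPM at PND 13, 0.146, 0.663 and 0.237 in PND 16 small, 0.164, 0.316 and 0.0796 in PND 16 large, and 0.172, 0 and 0.0735 at PND 40 (log2 fold change -1.62 ± 0.68 (SE), edgeR adjusted p = 0.0850). Parp6 was called higher once, in PND 16 large vs. PND 13 (log2 fold change 0.79 ± 0.19 (SE), edgeR adjusted p = 0.00901), a call lost without PND 16 large replicate 1.

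Ercc6l2, Rad54l2 and Ercc6l, which share a name with other repair genes and were listed apart from the pathways, were not called. Ercc6l2, which is linked to double-strand break repair by end joining, measured 47.7, 52.8 and 51.8 CPM at PND 13, 58.4, 49.0 and 62.4 in PND 16 small, 44.2, 41.4 and 45.0 in PND 16 large, and 42.2, 43.9 and 41.7 at PND 40, lower in all competent pools at less than 1.5-fold (log2 fold change -0.32 ± 0.08 (SE), edgeR adjusted p = 0.00662). Rad54l2, a chromatin remodelling ATPase, measured 96.4, 102 and 101 CPM at PND 13, 103, 94.8 and 99.6 in PND 16 small, 104, 93.6 and 92.1 in PND 16 large, and 88.2, 84.1 and 99.7 at PND 40 and overlapped between groups (log2 fold change -0.09 ± 0.06 (SE), edgeR adjusted p = 0.309). Ercc6l, a helicase of anaphase DNA bridges, had cohort means of 144 to 161 CPM.

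**Figure D4:**
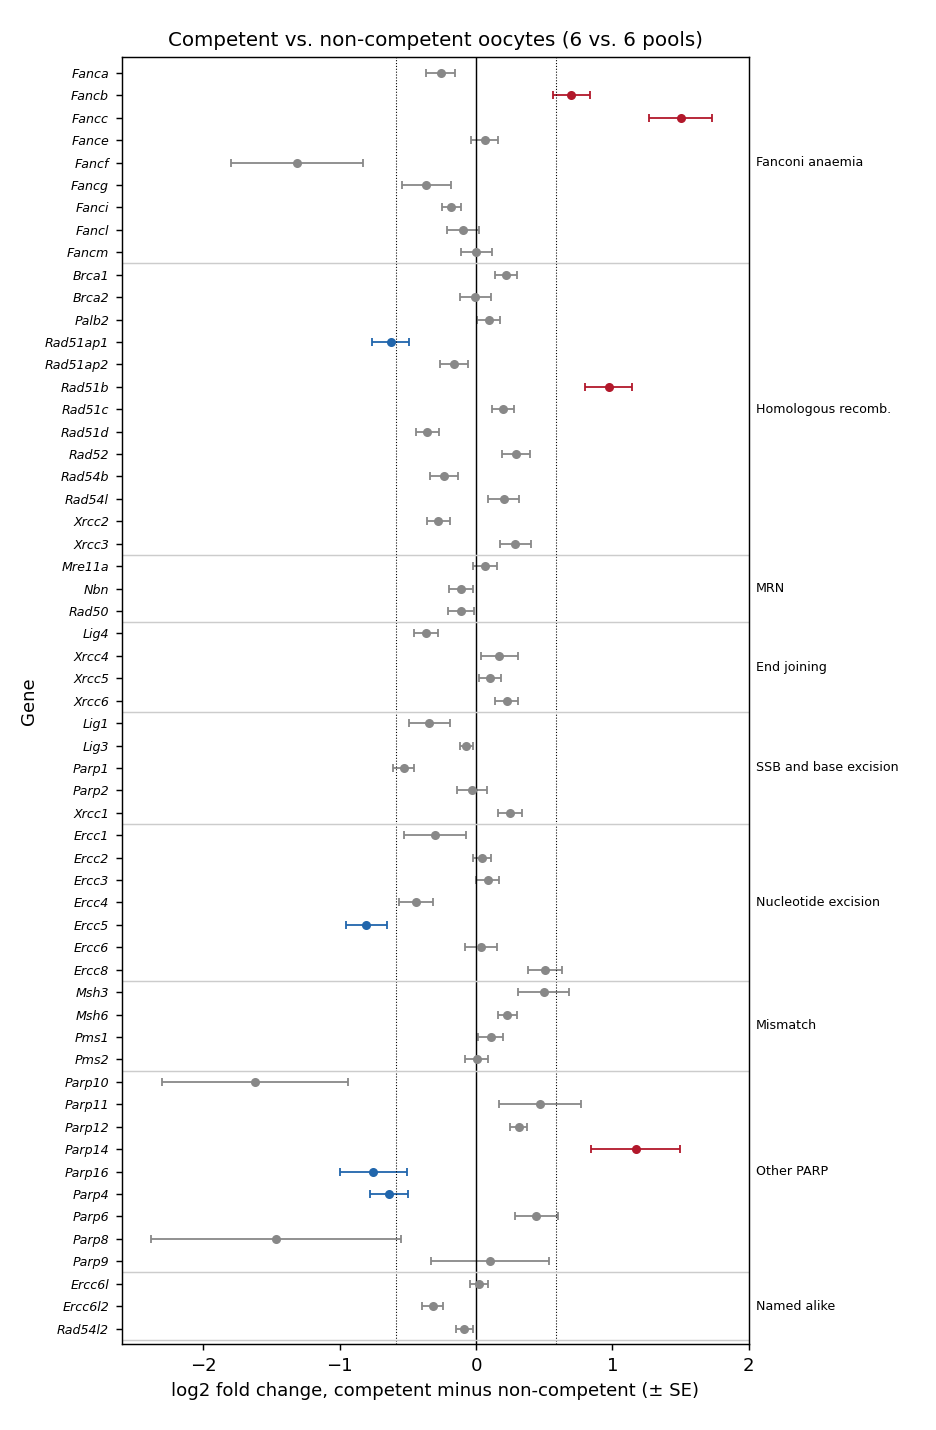
Log2 fold change in competent vs. non-competent oocytes (horizontal axis, point and SE) of 57 of the 59 tested repair genes by pathway, with called genes in red (4 higher) and blue (4 lower), others in grey, and dotted lines at 1.5-fold. Most points lie between the dotted lines, and the widest bars belong to genes of low or variable counts such as Parp8, Parp10 and Fancf.

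Without the fold criterion, 21 repair genes passed an adjusted p of 0.05 in competent vs. non-competent oocytes, 11 higher and 10 lower (35.6%, against 30.7% of all genes tested). For 10 of the 59, the 6 competent pools all lay on the same side of the 6 non-competent pools (16.9%, against 14.7% of all genes tested). The 3 pools with high granulosa markers were PND 13 replicates 1 and 3 and PND 16 small replicate 2. Without them, 7 of the 8 calls of competent vs. non-competent oocytes remained, Parp16 being lost. The shares of all genes called without these pools are not given here. In PND 16 large vs. PND 13, 4 of 8 calls were made and in PND 40 vs. PND 13 4 of 10, with a single PND 13 pool left, whose spread was assumed to be that of the other cohorts. Fancc was among those lost in both, with log2 fold changes of 1.10 and 1.73 (edgeR adjusted p = 0.246 and 0.0864) beside 1.13 and 1.77 with all pools.

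A further list of 100 repair genes outside the symbol rule was counted in the same fits, and 99 were tested. In competent oocytes 0 were higher and 5 lower (5.05%, against 15% of all genes tested, 3.78% higher and 11.2% lower). No gene of this list was called in PND 16 small vs. PND 13. The counts higher and lower were 0 and 6 in PND 16 large vs. PND 13 (6.06% against 13.3%), 2 and 6 in PND 40 vs. PND 13 (8.08% against 18.9%), 1 and 2 in PND 16 large vs. PND 16 small (3.03% against 6.19%), and 3 and 5 in PND 40 vs. PND 16 small (8.08% against 17.2%). The largest decreases were those of Mlh3, a meiotic MutL protein (log2 fold change -1.29 ± 0.14, edgeR adjusted p = 3.62e-05), Fan1, a crosslink nuclease (-0.83 ± 0.20, edgeR adjusted p = 0.00570), and Prkdc, the catalytic subunit of the end-joining kinase (-0.78 ± 0.15, edgeR adjusted p = 0.00144; SE). In PND 40 vs. PND 16 large, where no gene of the symbol rule was called, 3 of the 99 were higher and 1 lower (4.04% against 3.66%). Fan1 (0.77 ± 0.20), Polk, a translesion polymerase (0.72 ± 0.18), and Trp53bp1, which favours end joining (0.63 ± 0.16), were higher at PND 40, and Prkdc was lower (-0.67 ± 0.12; log2 fold change ± SE).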

How the data were processed

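RNA-Seq libraries were directional and made after depletion of ribosomal RNA. Oocytes had been freed of surrounding cells mechanically, so that some cumulus cells may remain. The authors deposited raw read counts per gene, without normalization, which were used for all results. The deposited log2 values, the log2 of counts scaled by the authors plus 1, served only to check the count table. The submitters' processing notes name FastQC, STAR, HTSeq, DESeq2, DESeq and HOMER and the build mm10, without versions. The strand setting of the counting is not given in the sources used here.

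Cohorts were taken from the sample labels, and all 12 pools were used. In R 4.3.3 with edgeR 4.0.16, genes were kept by filterByExpr (minimum count 10), scaled by TMM and fitted by robust quasi-likelihood. The 6 pairwise comparisons came from 1 model of the 4 cohorts, and competent vs. non-competent oocytes from a model of 6 vs. 6 pools. Tests were two-sided, p-values measure the spread between pools, and each SE was derived from the log2 fold change and its F statistic. The 6 vs. 6 model took all pools of a side as independent replicates, though pools of the same cohort share age and size group. Its p-values thus do not take the cohort as the unit. Exon lengths are unions of GENCODE M21 exons, and coordinates are from RefSeq GRCm38.p6, the build the notes call mm10.

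The members, gene lists, named-gene rule and motifs were chosen with earlier results of these data known. The rule named every gene called in at least 2 comparisons, the 2 of each pathway with the largest change in competent oocytes, the most abundant of each pathway, and, of the further list, up to 3 called genes per direction. Alternatives were RLE factors, total counts, no filter, no fold criterion, DESeq2 1.42.0, only the cohorts compared, a replicate block, leaving out each pool and, added after seeing the data, leaving out 3 pools with high granulosa markers. The test was checked on simulated counts, with changes put into genes above a minimum level. In PND 40 vs. PND 13 it called 70% of 2-fold changes and 94% of 4-fold changes. Genes left unchanged gave 6 calls. The values of 2 genes of the set are not reported here, though the counts and medians over the set include them.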

Additional observations from a re-analysis of the deposited data

Results flagged for a closer look

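In 6 of 118 sets of 6 pools (59 genes in competent and in non-competent oocytes), 1 pool lay apart from the others by Dixon's test, and chance alone flags about 1 in 20. PND 16 small replicate 3 was the high pool for 3 genes among the 6 non-competent pools. Brca2 had 903 CPM there, with the next pool at 589, Fancm, the translocase of the Fanconi anaemia complex, had 143 CPM, with the next at 103, and Rad50 had 278 CPM, with the next at 210.4. The same pool had 28.1 CPM of theca and stroma markers against 7.30 to 11.4 in the other non-competent pools. PND 16 large replicate 2 had a higher sum of these markers, 38.4 CPM, with 583 CPM of Brca2, 109 of Fancm and 189 of Rad50. In both pools Col1a1 and Col1a2 gave the largest parts of the sum, and Cyp17a1, another marker of this list, was not detected. The part of these markers in the Brca2, Fancm and Rad50 values was not tested. Msh3 had 199 CPM in PND 40 replicate 1, with the next competent pool at 128. Fancb was low in PND 16 large replicate 3, with 14.0 CPM and the next competent pool at 19.5. Parp9 had 4.44 CPM in PND 13 replicate 1, with the next non-competent pool at 2.23.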

How the results depend on the processing

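Of the 38 called values of repair genes, 14 were called under every alternative, and none changed direction. The 38 had passed the thresholds in these same counts, which made a change of direction unlikely beforehand. The matching share of all called genes is not given. Without the fold criterion the counts were 16 in PND 16 large vs. PND 13, 19 in PND 40 vs. PND 13, 11 in PND 16 large vs. PND 16 small, 20 in PND 40 vs. PND 16 small, 1 in PND 40 vs. PND 16 large (Rad54l) and 21 in competent vs. non-competent oocytes, because the criterion was removed (27.1%, 32.2%, 18.6%, 33.9%, 1.69% and 35.6% of the repair genes, against 25.6%, 33.1%, 12.3%, 30.2%, 6.83% and 30.7% of all genes tested). DESeq2 gave 1 in PND 16 small vs. PND 13. No filter on low counts gave 3 in PND 16 large vs. PND 16 small. With only the cohorts compared there was 1 call in that comparison and 1 in PND 40 vs. PND 16 large (Fancc). The cause was not tested. Apart from the fits without the fold criterion, the shares of all genes called under the alternatives are not given. Leaving out the 3 pools with high granulosa markers, chosen after seeing the data, gave 4 in PND 16 large vs. PND 13 and 4 in PND 40 vs. PND 13, with fewer samples. With total counts in place of TMM, the median of all genes was -0.12 on the log2 scale in PND 16 small vs. PND 13, against -0.03, and -0.13 in PND 16 large vs. PND 13, against -0.04.

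With single pools left out there were 0 to 1 calls in PND 16 small vs. PND 13, 4 to 7 in PND 16 large vs. PND 13, 7 to 11 in PND 40 vs. PND 13, 0 to 5 in PND 16 large vs. PND 16 small, 6 to 9 in PND 40 vs. PND 16 small, 0 to 0 in PND 40 vs. PND 16 large and 6 to 9 in competent vs. non-competent oocytes. The call gained in PND 16 small vs. PND 13 was Fancc, without PND 16 small replicate 1. The lowest count of PND 16 large vs. PND 13, 4, came without PND 16 large replicate 1, and it was 5 without PND 13 replicate 2 or 3. The shares of all genes called in these fits are not given, so a fall in count cannot be read as particular to the repair genes.

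Replicate numbers did not pair the pools. None of 18 correlations between same-numbered pools exceeded 0.1 (-0.442 to 0.0753), and 3 of 12 pools correlated best with their own number. With the replicate block the counts were 0, 7, 9, 4, 7 and 0 for the pairwise comparisons in the order above and 7 for competent vs. non-competent oocytes. The shares of all genes called with the block are not given, so these counts cannot be read as particular to the repair genes. Depth limits Parp10 (0 to 14 counts per pool), Parp3 (0 to 4) and Fancf (6 to 86).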
